A study of Mus musculus with 48 samples.

Results

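Alveolar epithelial type II cells (AECII) exposed to an extract of e-cigarette vapour (ECVE) prepared with an e-liquid that contained 18 mg/ml nicotine (18mg) were compared with control AECII. The comparison used 16 of the 48 arrays of the series, 8 of 18mg AECII and 8 of control AECII, and each gene was read from 1 feature, its brightest on average over all arrays. Of 20738 genes on the array, 14477 were bright enough to be tested, and no gene passed at an adjusted p under 0.05. The description below therefore gives sizes, counts and the spread between arrays, gene group by gene group.

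The AECII came from C57Bl/6J mice and were cultured in DMEM with 10% FBS at 300000 cells per well. At 24 h after isolation the 18mg cells received 15% ECVE for 24 h. The treatment field of the labels reads smoke for these cells and room air for the controls, and does not say more of what the control wells received. A further 8 arrays hold AECII given 15% ECVE from a liquid with 0 mg/ml nicotine (0mg). The rest of the series holds the same 3 conditions in pulmonary arterial smooth muscle cells (PASMC). PASMC were cultured with 15% FBS, and no cell number per well is given for them. The design text speaks of cells isolated from 8 mice, but the labels do not tie an array number to a mouse, so the p values measure the spread between arrays.

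AECII make and recycle surfactant and renew the alveolar epithelium. Inhaled oxidants and reactive aldehydes are met in such cells by the KEAP1-NRF2 system. The sensor KEAP1 marks the transcription factor NRF2 for destruction, reactive electrophiles disable the sensor, and NRF2 then switches on genes that make glutathione, conjugate toxic compounds to it, reduce quinones and carbonyls, and pump the products out. Aromatic hydrocarbons act through another receptor, AhR, whose classical targets are cytochrome P450 genes, and nicotine opens nicotinic acetylcholine receptors, which are cation channels.

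All values are log2 intensities as deposited, and a difference is the 18mg mean minus the control mean on that scale, given with its standard error (SE) from the limma fit. Every adjusted p of the comparison was 1 in limma with Benjamini-Hochberg adjustment, so 0 genes were called, which is 0% of those tested. At an unadjusted p under 0.05 there were 341 genes (2.36% of those tested), 206 higher in 18mg (1.42%) and 135 lower (0.933%), where 724 would pass at this level with no change in any gene. Differences above 0 were found in 54.8% of tested genes, and the median over all of them was 0.012. From the 5th to the 95th percentile the differences ran from -0.31 to 0.31, and of the 10027 tested genes with a mean above 5 only 37 differed by 0.5 or more. In no gene did all 18mg arrays lie above all control arrays (0% of tested genes), and in 1 gene, Atp2a3, all lay below (0.00691%). Missing the threshold does not show that the 2 groups were alike, since a gene with a mean above 5 had a median SE of 0.12.

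**Figure D1:**
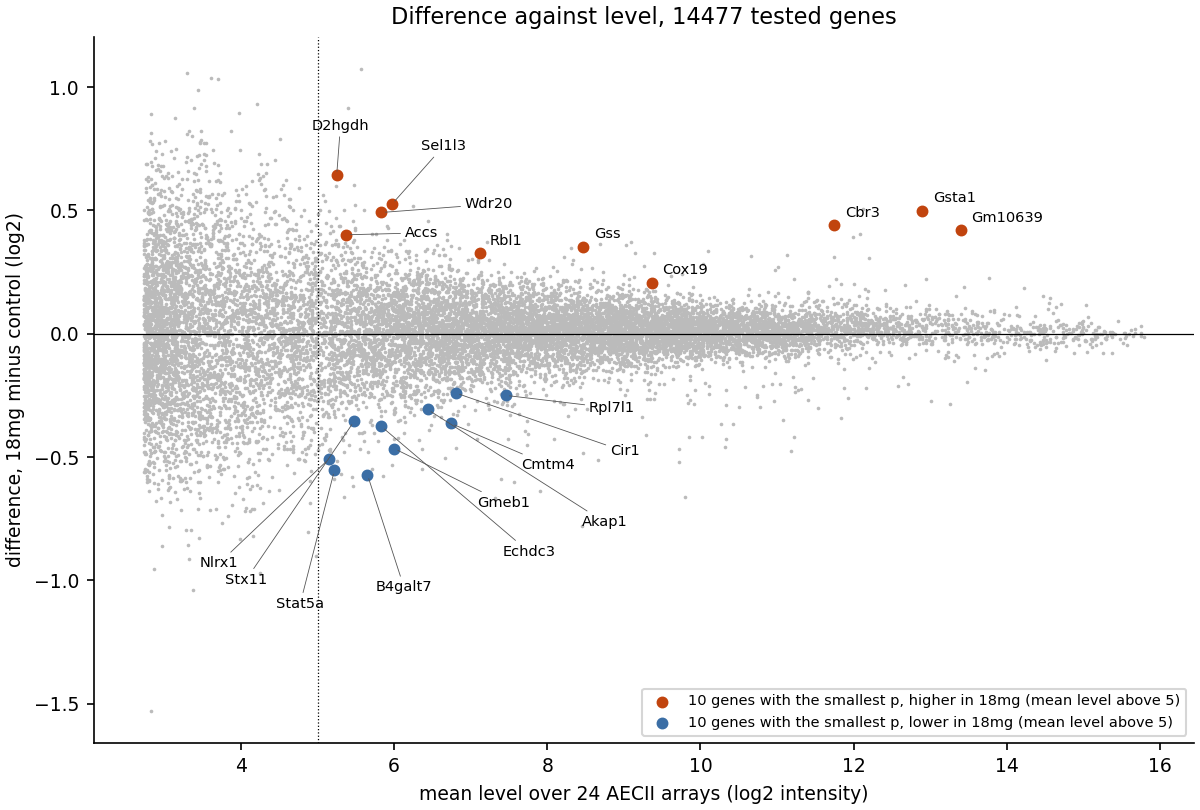
Difference of 18mg minus control AECII (log2, vertical axis) against the mean level over 24 AECII arrays (log2 intensity, horizontal axis), 1 point per tested gene. Coloured points are the 10 genes per direction with the smallest p among those with a mean above 5 (dotted line), and none of the 14477 genes passed the adjusted threshold.

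Genes of glutathione conjugation stood among those with the smallest p at a mean above 5. Gsta1, an alpha-class glutathione transferase that couples glutathione to lipid-derived electrophiles, had a lowest, median and highest level of 12.76, 13.10 and 13.52 in 18mg arrays, against 12.18, 12.68 and 12.91 in control arrays. All 8 of the 18mg arrays lay above the control mean, arrays 5 and 6 highest, and 3 of them (1, 7 and 8) still lay below the highest control array. Its difference was 0.50 (SE 0.13), and it lay between 0.44 and 0.55 when any 1 array was left out. Gm10639, a gene model of the same chromosome 9 family, differed by 0.42 (SE 0.12) and Gsta2 by 0.32 (SE 0.24). The transcripts of these neighbours are closely similar, and features may have bound more than 1 of them.

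Gsta3, which conjugates aldehydes and epoxides, had levels of 11.61, 12.28 and 12.69 (lowest, median, highest) in 18mg arrays, against 11.37, 11.85 and 12.20 in control arrays. The lowest values came from 18mg array 7 and control array 6, and the groups overlapped. The difference was 0.40 (SE 0.15), and 0.42 at the other feature of the gene. Gsta4, the enzyme with a preference for the lipid aldehyde 4-hydroxynonenal, differed by 0.33 (SE 0.16), with all of its features between 0.28 and 0.36. Of the 22 glutathione transferase genes, 15 were above 0, against 54.8% of all tested genes, with a median of 0.11 against 0.012. At an unadjusted p under 0.05 there were 2 higher (1.42% of all tested genes were) and 1 lower (0.933%). The lower one was the theta-class Gstt2 (-0.30, SE 0.15).

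Enzymes that reduce or open reactive carbonyls, quinones and epoxides made up a second group, with 14 of 17 genes above 0 and a median of 0.10. Without control array 1 this median was 0.037. Cbr3, a carbonyl reductase, had levels of 11.66, 11.87 and 12.32 in 18mg arrays, against 11.07, 11.56 and 11.93 in control arrays. Control array 8 alone reached into the range of the 18mg arrays, and the difference was 0.44 (SE 0.12). Ephx1, the microsomal epoxide hydrolase, had levels of 11.57, 11.92 and 12.27 in 18mg arrays, against 11.29, 11.60 and 12.03 in control arrays, a difference of 0.31 (SE 0.11). Here control array 7 reached farthest into the range of the 18mg arrays. Ptgr1, which reduces unsaturated aldehydes and ketones, differed by 0.22 (SE 0.13).

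Nqo1, the quinone reductase used as a reference readout of NRF2, had levels of 7.88, 9.12 and 9.89 in 18mg arrays, against 7.49, 8.98 and 9.23 in control arrays. In each group 1 array lay far below the rest, array 7 of 18mg and array 6 of control. The difference was 0.36 (SE 0.26), and it was 0.54 without that 18mg array and 0.17 without that control array.

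Genes that make and recycle glutathione had 14 of 18 members above 0 with a median of 0.13, which was 0.081 without control array 4. Gss, glutathione synthetase, had levels of 8.26, 8.63 and 8.90 in 18mg arrays, against 7.81, 8.36 and 8.51 in control arrays. Of the 18mg arrays 5 exceeded every control array, and the difference was 0.35 (SE 0.12). Gclm, the modifier subunit of the rate-limiting glutamate-cysteine ligase, had levels of 8.82, 9.30 and 9.74 in 18mg arrays, against 8.46, 8.87 and 9.48 in control arrays. The groups overlapped, control array 8 reaching farthest, and the difference was 0.37 (SE 0.18). The catalytic subunit Gclc differed by 0.26 (SE 0.17), the cystine carrier Slc7a11 by 0.38 (SE 0.29) and the epithelial peroxidase Gpx2 by 0.22 (SE 0.10). The secreted peroxidase Gpx3 was at -0.57 (SE 0.38), a value that rested on control array 1 (8.14) and was -0.20 without it.

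In the thioredoxin system, which repairs oxidised protein thiols, 12 of 17 genes were above 0 with a median of 0.057. That median was 0.046 without control array 1 and 0.12 without 18mg array 3. Srxn1, sulfiredoxin, had levels of 11.47, 12.35 and 12.80 in 18mg arrays, against 11.20, 12.10 and 12.44 in control arrays, a difference of 0.31 (SE 0.18). As with Nqo1, 18mg array 7 and control array 6 were lowest. Prdx1, a peroxiredoxin, differed by 0.22 (SE 0.12) and Txnrd1, thioredoxin reductase, by 0.20 (SE 0.12). Among efflux pumps 9 of 10 genes were above 0 with a median of 0.18, and 0.11 without 18mg array 5. Abcc3, which exports glucuronide and glutathione conjugates, had levels of 8.86, 9.17 and 9.75 in 18mg arrays, against 8.67, 8.89 and 9.34 in control arrays, and differed by 0.33 (SE 0.13). Abcg2, a xenobiotic pump of broad range, differed by 0.19 (SE 0.16). Abcb1a, a multidrug P-glycoprotein gene with a low mean of 4.76 over AECII arrays, differed by 0.40 (SE 0.31).

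The 4 lists of transferases, carbonyl and quinone enzymes, glutathione genes and the thioredoxin system held 74 tested genes. Of these 55 were above 0, with a median of 0.11. These lists were pooled with earlier results of these data known, so the counts are a description. Among the lists left out were efflux pumps (median 0.18) and heme and iron genes (0.095). Also left out were NADPH enzymes (0.037), superoxide and peroxide removal (0.037), NRF2 regulators (0.030) and metallothioneins (0.039). At an unadjusted p under 0.05, 7 of the 74 were higher and 1 was lower. Over all tested genes 54.8% were above 0 with a median of 0.012, and 1.42% were higher and 0.933% lower at that level. Single arrays gave the extreme value in many of these genes. Control array 6 gave the lowest control value in 29 of the 74 genes and 18mg array 7 the lowest 18mg value in 26, while 18mg array 5 gave the highest in 20. The median deviation from the group mean was -0.21 in control array 6 and -0.16 in 18mg array 7, against 0.15 in 18mg array 6, and both arrays lay farther from their group mean than the median difference between groups.

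**Figure D2:**
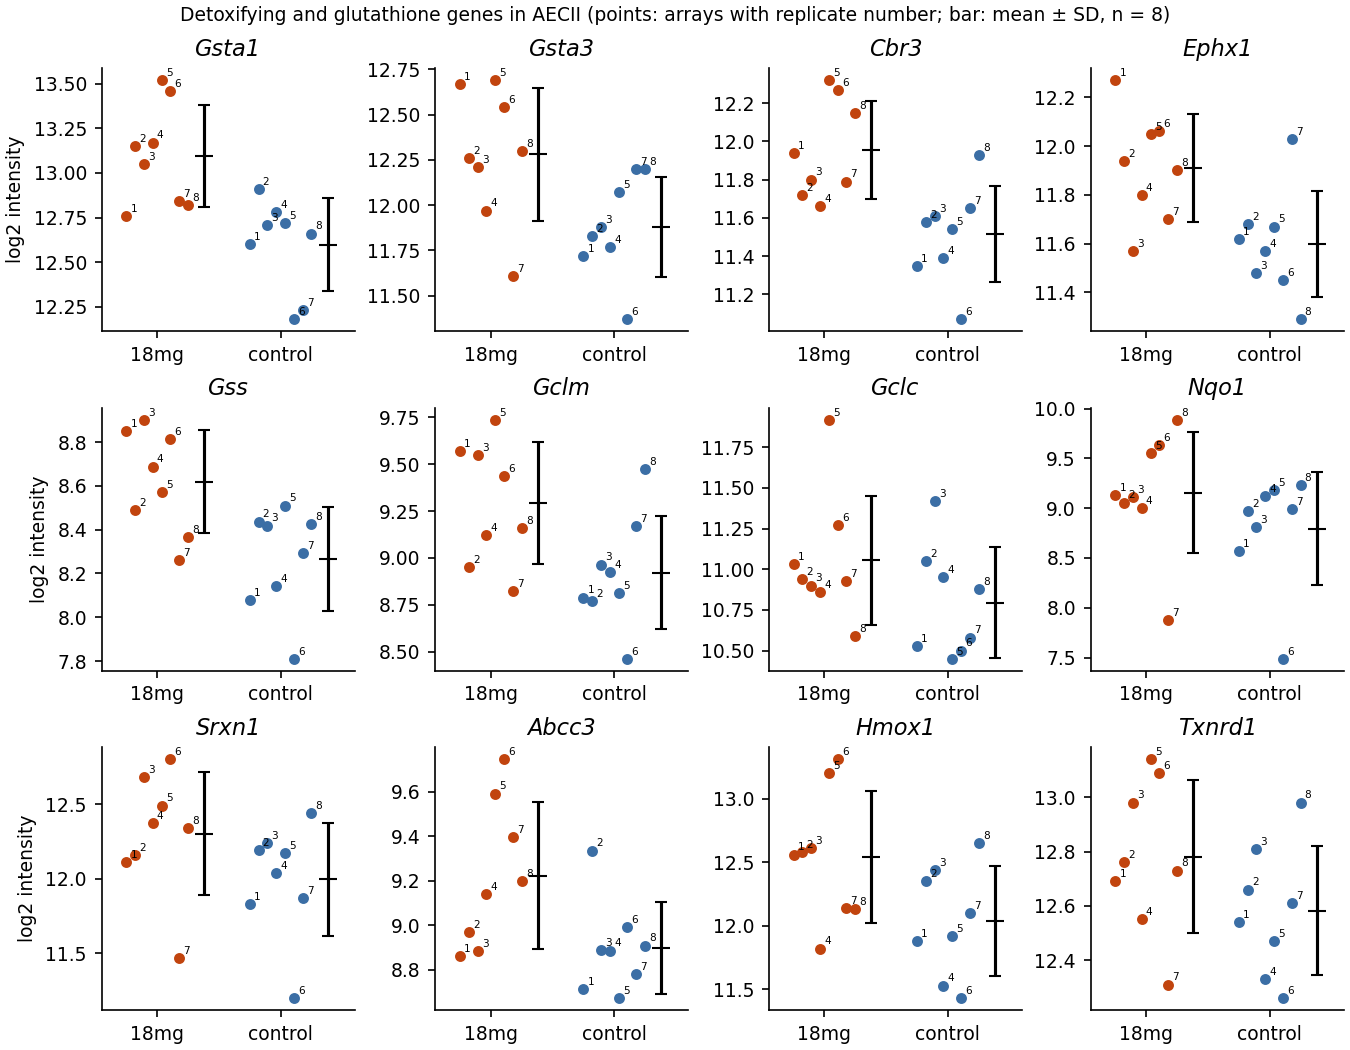
Log2 intensity of 12 detoxifying and glutathione genes in each AECII array, 18mg left of control, with points numbered by replicate and the mean ± SD of 8 arrays beside them. Groups overlap in every panel, and 18mg array 7 and control array 6 lie lowest in several, among them Nqo1 at 7.88 and 7.49.

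NRF2 binds the antioxidant response element, whose core was searched as TGACNNNGC on both strands in the 250 bases before each RefSeq gene start (GRCm38.p6). The core occurred in 10.2% of all 32851 promoter windows, in 3 of 28 windows of glutathione transferases (10.7%), 4 of 24 of glutathione genes (16.7%), 3 of 18 of thioredoxin genes (16.7%), 3 of 12 of efflux pumps (25%) and 0 of 18 of carbonyl, quinone and epoxide genes. In the other lists searched it occurred in 1 of 17 windows of NADPH enzymes (5.88%), 2 of 22 of heme and iron genes (9.09%) and 2 of 20 of aldehyde and alcohol dehydrogenases (10%). For the ATF4 list it was 7 of 34 (20.6%), and for the NRF2 regulators and sensors 4 of 18 (22.2%). Some genes have more than 1 window. The 4 stretches below are shown because they carry a core before genes named above. Each lies on the plus strand, and capitals mark the core, on the opposite strand in Gclm, Prdx1 and Txnrd1.
Gsta3, chr1:21240404-21240532, core 121 to 113 bases before the start: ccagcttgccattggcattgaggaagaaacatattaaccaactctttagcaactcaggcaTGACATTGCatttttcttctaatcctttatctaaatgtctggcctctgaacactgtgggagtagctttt
Gclm, chr3:122245363-122245491, core 134 to 126 bases before the start: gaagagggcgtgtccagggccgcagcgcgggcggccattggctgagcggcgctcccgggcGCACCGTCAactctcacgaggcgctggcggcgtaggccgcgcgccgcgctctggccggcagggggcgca
Prdx1, chr4:116685406-116685534, core 133 to 125 bases before the start: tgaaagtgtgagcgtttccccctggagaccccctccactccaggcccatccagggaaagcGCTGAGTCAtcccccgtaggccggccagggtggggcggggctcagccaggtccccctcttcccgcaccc
Txnrd1, chr10:82859054-82859182, core 92 to 84 bases before the start: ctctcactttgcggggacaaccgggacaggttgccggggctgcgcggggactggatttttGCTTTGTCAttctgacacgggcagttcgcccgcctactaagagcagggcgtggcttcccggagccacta
A match is a run of letters and not a measured binding site. The windows of Gsta1 and Cbr3 held no such letters, which says nothing more about the factor.

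Values for the regulators of the pathway were small. Nfe2l2, which encodes NRF2, was at -0.018 (SE 0.11) and Keap1 at 0.039 (SE 0.10), while Cul3, the scaffold of the ligase that KEAP1 serves, was at 0.21 (SE 0.10). Of 13 regulators and sensors 10 were above 0 with a median of 0.030. It was 0.021 without 18mg array 6 and 0.055 without control array 6. Among enzymes that supply NADPH for these reductions 10 of 14 were above 0 with a median of 0.037. That median was 0.025 without 18mg array 3 and 0.059 without 18mg array 4. Taldo1 (transaldolase) was at 0.11 (SE 0.064) and Tkt (transketolase) at 0.13 (SE 0.087). In the heme and iron list 12 of 16 were above 0 with a median of 0.095, and 0.056 without control array 3. The iron exporter Slc40a1, near background with a mean of 4.14 over AECII arrays, was at 0.62 (SE 0.30). The ferritin heavy chain Fth1 was at 0.12 (SE 0.071).

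Hmox1, heme oxygenase, another NRF2 readout, had levels of 11.82, 12.57 and 13.31 in 18mg arrays, against 11.43, 12.01 and 12.65 in control arrays. The 18mg arrays 5 and 6 were highest and the groups overlapped. Its difference was 0.51 (SE 0.44) in the fit of 24 arrays and kept that size with an SE of 0.23 when only the 16 arrays compared were fitted. The wider spread came with the 0mg group, where array 2 was at 8.29 and the other arrays ran from 11.47 to 12.61.

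Aldehyde and alcohol dehydrogenases clear the aldehydes of heated liquids and of lipid peroxidation, and 18 of 22 were above 0 with a median of 0.061. That median was 0.039 without 18mg array 8, where 13 of 22 were above 0, and 0.10 without control array 7. Aldh1a7 differed by 0.23 (SE 0.10) and Aldh1a1, a retinal and aldehyde dehydrogenase, by 0.17 (SE 0.081). Aldh3a1, an aldehyde dehydrogenase of surface epithelia, differed by 0.31 (SE 0.17). In the list of P450 genes and AhR targets 9 of 13 were above 0. The median was 0.13, and 0.016 without control array 3. Nqo1 and Aldh3a1, described above, are also members of this list, and Nqo1 has its highest value (0.36). Cyp1a1, the readout of AhR, had levels of 6.70, 8.48 and 9.84 in 18mg arrays, against 7.15, 8.67 and 9.64 in control arrays, with nearly the same range in both. Its difference was -0.13 (SE 0.46), that of Cyp1b1 was 0.14 (SE 0.14), and that of Tiparp, another AhR target, was 0.16 (SE 0.12).

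Genes of the response to misfolded protein and lack of amino acids lay above 0 in most cases by small amounts. The ATF4 list, a program of amino acid import and synthesis, had 31 of 35 genes above 0 with a median of 0.083. Fitted with runs of 8 consecutively numbered samples as a block, it had 27 of 35 above 0 with a median of 0.060. Of the ATF4 list, the members at the smallest p were Slc6a9, Stc2 and Slc7a5. Slc6a9, a glycine carrier, was at 0.28 (SE 0.14) and Slc7a5, a carrier of large neutral amino acids, at 0.19 (SE 0.11). Stc2, a secreted stanniocalcin with a low mean of 4.63 over AECII arrays, was at 0.52 (SE 0.26). Ddit3, the stress factor CHOP, was at 0.32 (SE 0.19), Trib3 at 0.078 (SE 0.11) and Atf3 at 0.046 (SE 0.15). Proteasome subunits were above 0 in 24 of 27 cases with a median of 0.043, led by Psma1 at 0.10 (SE 0.082). With runs of 8 consecutively numbered samples as a block the count was 18 of 27, and without 18mg array 7 the median was 0.028. Cytosolic heat shock genes were above 0 in 16 of 18 cases with a median of 0.058, from Hspa4l at 0.15 (SE 0.078) to Chordc1 at -0.13 (SE 0.073), and the inducible Hspa1a was at 0.094 (SE 0.14). Without control array 6 that median was 0.035. Chaperones of the endoplasmic reticulum had 15 of 22 above 0 with a median of 0.029, and 0.0014 without control array 3. In the autophagy and lysosome list 17 of 26 were above 0 with a median of 0.030, and 0.0010 without 18mg array 6, and Becn1, which starts autophagosome formation, was at 0.29 (SE 0.12). The metallothionein Mt1, a zinc and metal buffer, was at 0.061 (SE 0.14).

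**Figure D3:**
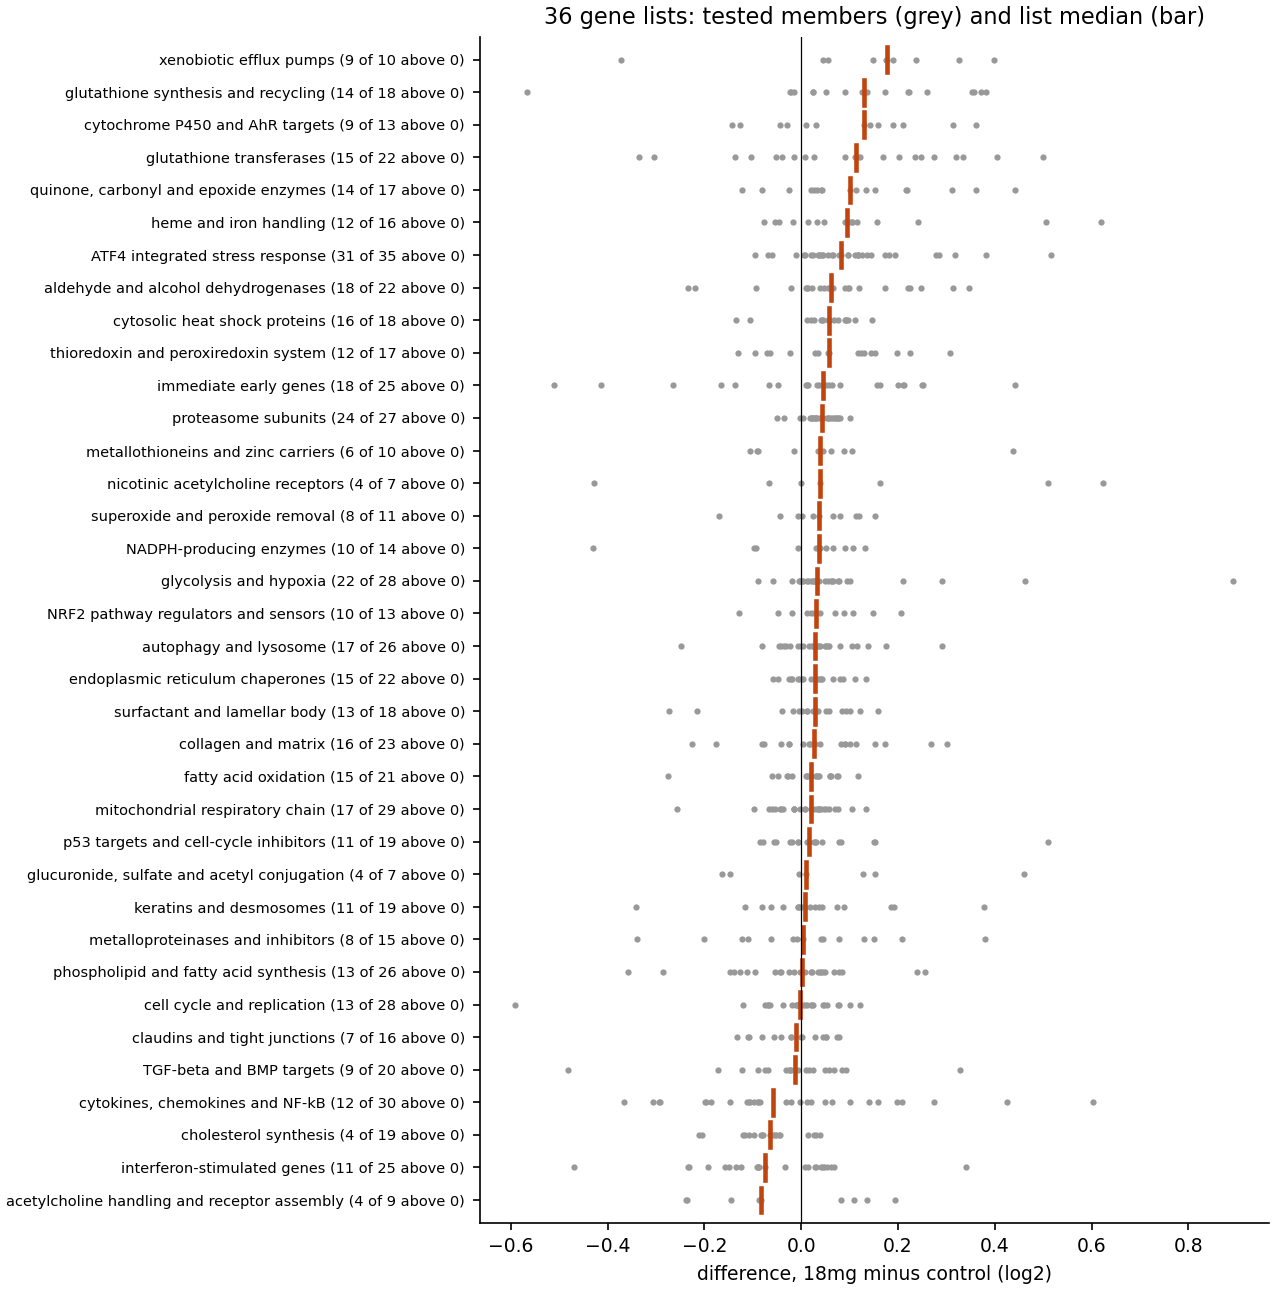
Differences of 18mg minus control AECII (log2) for the tested members of 36 gene lists (grey points) with the list median (bar), ordered by median, and the count of members above 0 in brackets. Medians run from 0.18 for efflux pumps down to -0.083 for acetylcholine handling, and the median over all tested genes was 0.012.

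Below the median over all genes lay lists of sterol, interferon and cytokine genes. Cholesterol synthesis had 4 of 19 genes above 0 with a median of -0.064, among them Dhcr7, its last enzyme (-0.21, SE 0.18), Mvd (-0.20, SE 0.21) and Lss, lanosterol synthase (-0.12, SE 0.12). No member reached an unadjusted p under 0.05. The median was -0.023 without control array 6 and -0.11 without 18mg array 7, where 0 of 19 were above 0. Interferon-stimulated genes had 11 of 25 above 0 with a median of -0.074, with Xaf1 at -0.47 (SE 0.29) and the ubiquitin-like Isg15 at -0.12 (SE 0.14). That median was -0.028 without control array 2, and 4 of 25 were above 0 without 18mg array 8. Cytokines, chemokines and NF-kB genes had 12 of 30 above 0 with a median of -0.058, which was 0.018 without 18mg array 7. Within that list the T-cell chemokine Ccl5 was at 0.60 (SE 0.32). The epithelial alarmin Il33, with a low mean of 4.67 over AECII arrays, was at 0.43 (SE 0.34). In contrast, the neutrophil chemokine Cxcl1 was at -0.29 (SE 0.29) and Il6 at -0.090 (SE 0.21).

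Other programs had medians near that of all genes. Surfactant and lamellar body genes had 13 of 18 above 0 with a median of 0.028, the lipid transporter Abca3 being at 0.094 (SE 0.10). Superoxide and peroxide removal had 8 of 11 above 0 (median 0.037), metallothioneins and zinc carriers 6 of 10 (0.039), glucuronide, sulfate and acetyl conjugation 4 of 7 (0.0094), and collagen and matrix genes 16 of 23 (0.026). Claudins and tight junctions, which seal the epithelium, had 7 of 16 above 0 (median -0.010), keratins and desmosomes 11 of 19 (0.0087), and metalloproteinases and their inhibitors 8 of 15 (0.0034). Phospholipid and fatty acid synthesis split evenly, 13 of 26, with a median of 0.0024. Cell cycle and replication genes had 13 of 28 above 0 (median -0.0033), p53 targets 11 of 19 (0.015), the respiratory chain 17 of 29 (0.020), fatty acid oxidation 15 of 21 (0.020) and TGF-beta and BMP targets 9 of 20 (-0.013). Cdk1, the mitotic kinase, had levels of 5.53, 6.92 and 8.51 in 18mg arrays, against 5.43, 8.03 and 8.47 in control arrays, and its difference was -0.59 (SE 0.53). Another of its 3 features, with a mean of 3.06 over AECII arrays, was at 0.36 (SE 0.25). Glycolysis and hypoxia genes had 22 of 28 above 0 with a median of 0.033, such as Aldoa (0.067, SE 0.060) and Gpi1 (0.079, SE 0.062). The lactate carrier Slc16a1 averaged 3.41 ± 0.61 in 18mg and 2.52 ± 0.45 in control (SD, n = 8). Its control mean lay under the brightness limit of 2.73 (set on the mean over AECII arrays), so no difference is given. Immediate early genes had 18 of 25 above 0 with a median of 0.046, the phosphatase Dusp2 being at -0.51 (SE 0.22) and the antiproliferative Btg2 at 0.25 (SE 0.13). With 1 array left out, the medians of these lists ran from -0.062 (tight junctions without control array 3) to 0.090 (metalloproteinases without 18mg array 4).

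Of 16 nicotinic receptor genes on the array, 7 were bright enough to be tested, and 4 of these were above 0. Their median was 0.039, and -0.0028 without 18mg array 7. The list mean was 3.83 in 18mg and 3.71 in control arrays, so the count and median are largely those of genes near background. Chrna7, which forms the homomeric alpha-7 channel, had levels of 3.44, 3.85 and 4.89 in 18mg arrays, against 2.41, 3.30 and 3.78 in control arrays. All 18mg arrays lay above the control mean, array 5 highest, and 4 of 8 lay above every control array, at levels not far from the array median of 2.97. Of the 10 features of the gene on the array 1 was above the brightness limit, and all values given are from it. The difference was 0.62 (SE 0.22), and in the 0mg arrays, set against the same control arrays, it was 0.58. Chrna1, a muscle-type subunit, averaged 3.54 in 18mg and 3.03 in control, near background, and differed by 0.51 (SE 0.31). Chrnb1 was at 0.039 (SE 0.15). Chrna4 averaged 2.58 ± 0.41 in 18mg, under the brightness limit, and 3.01 ± 0.57 in control (SD, n = 8). No difference is given for it, though it is 1 of the 7 genes in the count and median. Chrna5 lay under the brightness limit, with 2.49 ± 0.63 in 18mg and 2.55 ± 0.29 in control (SD, n = 8). Genes of acetylcholine handling and receptor assembly had 4 of 9 above 0 with a median of -0.083, which was 0.053 without 18mg array 3.

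Among genes with a mean above 5, those with the smallest p outside these lists were chosen for that p, so their values are a description. Higher in 18mg were Wdr20, a partner of deubiquitinating enzymes, at 0.49 (SE 0.13), Sel1l3 at 0.53 (SE 0.15), Accs at 0.40 (SE 0.13), Cox19, which helps to assemble cytochrome c oxidase, at 0.21 (SE 0.066), and Rbl1, the retinoblastoma relative p107, at 0.33 (SE 0.11). D2hgdh, D-2-hydroxyglutarate dehydrogenase, was at 0.64 (SE 0.19), but another of its 3 features was at -0.32 and the third lay under the brightness limit. Wdr20 had levels of 5.69, 6.08 and 6.29 in 18mg arrays, against 5.05, 5.66 and 5.89 in control arrays, overlapping in a few arrays.

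B4galt7, which adds the first galactose to the linker of proteoglycan chains, led the lower genes with a mean above 5. It had levels of 4.60, 5.35 and 5.67 in 18mg arrays, against 5.60, 5.89 and 6.13 in control arrays. All 8 of the 18mg arrays lay below the control mean, array 3 far below, and array 2 alone reached the range of the control arrays. The difference was -0.57 (SE 0.13), and -0.47 without 18mg array 3. It was followed by Akap1, which anchors protein kinase A at mitochondria (-0.31, SE 0.097), Nlrx1, a mitochondrial NOD-like receptor (-0.51, SE 0.16), Echdc3 (-0.38, SE 0.12) and Gmeb1, a DNA-binding modulator of glucocorticoid response (-0.47, SE 0.16). Rpl7l1 (-0.25, SE 0.088), the transcription factor Stat5a (-0.55, SE 0.19), the corepressor Cir1 (-0.24, SE 0.085), Cmtm4 (-0.36, SE 0.13) and the syntaxin Stx11 (-0.35, SE 0.13) completed the 10. Atp2a3, a calcium pump of the endoplasmic reticulum and the gene without overlap, averaged 3.48 ± 0.60 in 18mg and 4.31 ± 0.14 in control (SD, n = 8), with a difference of -0.83 (SE 0.24) near background, and was named after its values were seen.

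The extract without nicotine shares the control arrays with the 18mg comparison, so the 2 sets of differences are given side by side and not as independent results. Gsta1 was at 0.50 in 18mg and 0.40 in 0mg, and Cbr3 at 0.44 in 18mg and 0.28 in 0mg. Gss was at 0.35 in 18mg and 0.27 in 0mg, Gclc at 0.26 in 18mg and 0.27 in 0mg, and Nqo1 at 0.36 in 18mg and 0.34 in 0mg. List medians were 0.11 in 18mg and 0.10 in 0mg for glutathione transferases, 0.13 in 18mg and 0.099 in 0mg for glutathione genes, and 0.083 in 18mg and 0.056 in 0mg for the ATF4 list. Proteasome subunits had a median of 0.043 in 18mg, where 24 of 27 were above 0, and -0.0039 in 0mg, where 12 were (53% of all tested genes were above 0 in 0mg). B4galt7 was at -0.57 in 18mg and -0.093 in 0mg.

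Directly compared, 18mg and 0mg AECII differed in 0 of 14477 genes at an adjusted p under 0.05 (0%) in limma, where the smallest adjusted p was 1, and 447 genes (3.09%) had an unadjusted p under 0.05. Hmox1 was 0.74 higher in 18mg than in 0mg AECII (SE 0.44), and 0.235 (SE 0.22) without array 2 of the 0mg group.

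In PASMC, with control arrays of their own, the 18mg difference was 0.35 (SE 0.29) for Gsta1, 0.10 (SE 0.11) for Cbr3, -0.023 (SE 0.20) for Gsta3, 0.13 (SE 0.21) for Gss and 0.23 (SE 0.22) for Nqo1. In the list of glutathione transferases 15 of 22 genes were above 0 in AECII, against 7 in PASMC, and in the ATF4 list 31 of 35 in AECII, against 10 in PASMC. Some other lists had like counts in both cells. Proteasome subunits were above 0 in 24 of 27 cases in AECII and 25 in PASMC. For the thioredoxin list it was 12 of 17 in AECII and 13 in PASMC, and for endoplasmic reticulum chaperones 15 of 22 and 16. Over all tested genes the share above 0 was 54.8% in AECII and 51.7% in PASMC, and whether the lists differ between the cells was not tested. Tested as such, the difference between the 2 responses passed in 0 of 14775 genes (0%), with a smallest adjusted p of 0.308 in limma, and 382 genes (2.59%) had an unadjusted p under 0.05. Wdr20 (0.49 in AECII, -0.38 in PASMC, difference 0.87, SE 0.20), Gmeb1 (-0.47 and 0.40, difference -0.87, SE 0.21) and Nampt, which makes the NAD precursor (0.094 and -0.57, difference 0.67, SE 0.15), shared that p. With array weights 1 gene was called, Nampt, at a difference of 0.73 (SE 0.13, adjusted p = 0.0139 in limma), and it is named here after its values were seen. The PASMC arrays varied widely in epithelial transcripts, as the SE of 1.33 for the Sftpc difference shows. The part of this in the PASMC values was not tested. PASMC were also cultured with 15% FBS, against 10% for AECII, and the part of this in the response differences was not tested.

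**Figure D4:**
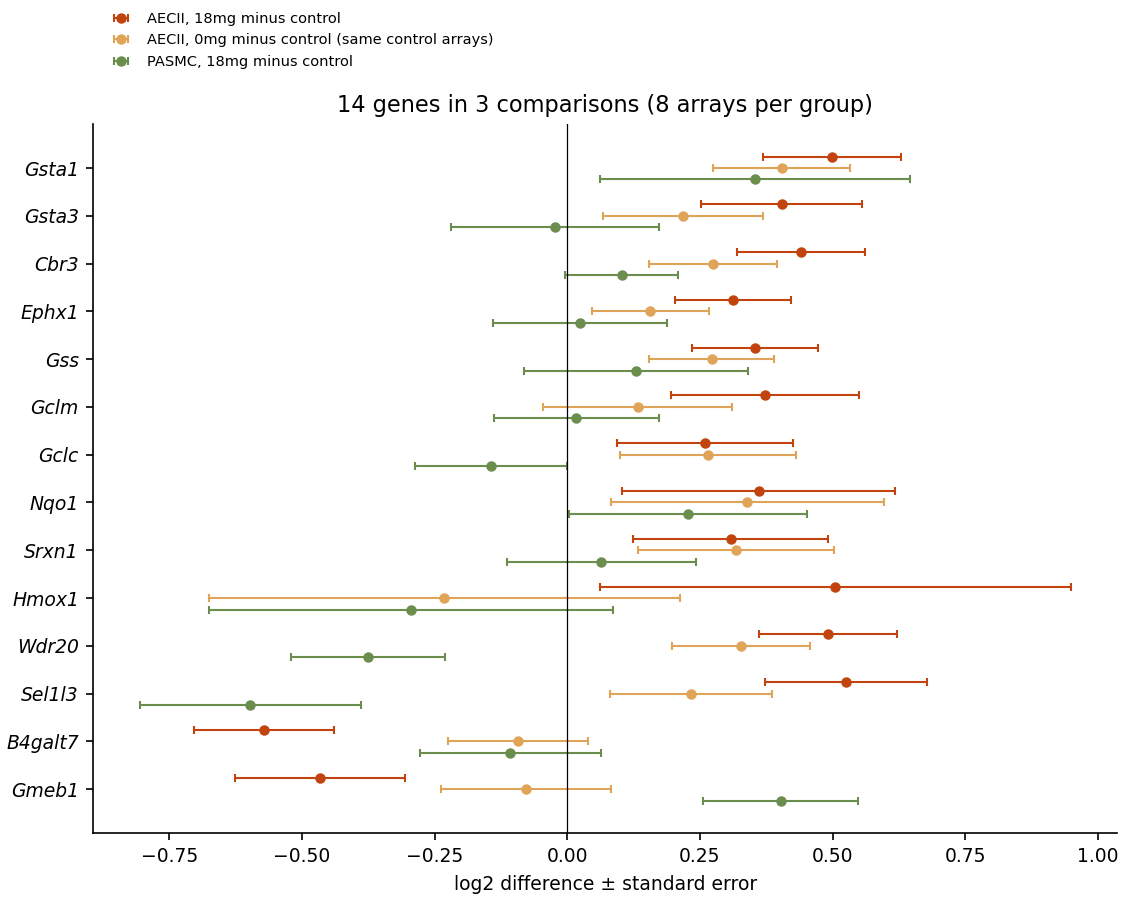
Log2 differences with their standard errors (horizontal axis) for 14 genes, in AECII 18mg minus control, AECII 0mg minus the same control arrays, and PASMC 18mg minus PASMC control, with 8 arrays per group. Gsta1, Cbr3 and Gss lie right of 0 in all 3, while Wdr20 and Sel1l3 lie right of 0 in AECII and left of 0 in PASMC (-0.38 and -0.60).

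The label of the cells was checked against marker genes. Of 12 type II markers 11 were bright enough to be tested, and the surfactant protein gene Sftpc, their defining transcript, was at 14.33 ± 0.32 in 18mg and 14.33 ± 0.30 in control arrays (SD, n = 8), a difference of -0.0048 (SE 0.14). The mean over the type II list ran from 9.83 to 10.37 in 18mg and from 9.63 to 10.25 in control arrays. It averaged 10.06 in 18mg and 10.02 in control, and other marker lists lay as high or higher. Transitional alveolar markers averaged 11.78 in 18mg and 11.77 in control, and general epithelial markers 10.64 and 10.63. Mesothelial markers averaged 10.61 in 18mg and 10.54 in control, and type I markers 10.04 and 10.12. Transcripts of other cells were also measured, that of Scgb1a1 at a higher level than Sftpc. Scgb1a1, the secreted protein of airway club cells, was at 15.76 ± 0.077 in 18mg and 15.73 ± 0.047 in control, near the upper end of the scale at 15.89, and the smooth muscle actin Acta2 was at 11.66 ± 0.76 in 18mg and 11.71 ± 0.67 in control.

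Macrophage markers (14 of 15 tested) varied most between arrays, with a list mean of 5.41 to 7.21 in 18mg and 5.54 to 7.68 in control arrays. The scavenger receptor Marco was at 7.60 ± 0.84 in 18mg and 7.32 ± 1.05 in control. The list median was 0.072 with 11 of 14 above 0, and -0.084 without 18mg array 3. Airway markers (9 of 11 tested) ran from 6.99 to 7.91 in 18mg and from 7.16 to 8.03 in control, fibroblast and smooth muscle markers (12 of 12) from 8.27 to 9.15 in 18mg and from 8.18 to 9.20 in control, and lymphocyte markers (8 of 9) from 3.998 to 4.54 in 18mg and from 3.94 to 4.54 in control. Of 7 neutrophil and mast cell markers 3 were bright enough to be tested, with a median of 0.32 in 18mg and 0.41 in 0mg, each against control. S100a8, a calcium-binding protein of neutrophils, was at -0.0088 (SE 0.53). S100a9 and the basophil protease Mcpt8 passed with control means under the limit, so the list median is that of genes near background. The list mean ran from 3.92 to 5.50 in 18mg and from 3.93 to 5.03 in control arrays. General epithelial markers had 5 of 10 above 0, endothelial markers 4 of 8, transitional alveolar markers 4 of 9 and mesothelial markers 6 of 7, the last with a median of 0.075 that was 0.023 without 18mg array 1. Type I markers had 2 of 10 above 0 with a median of -0.033. That median was -0.175 without control array 3 and 0.015 without control array 7. The count was 6 of 10 without control array 5, and 5 of 10 with the mean of all features of a gene. Their member Rtkn2 was at -0.58 (SE 0.26) near background. The keratin Krt8, raised in transitional alveolar cells, was at -0.0070 (SE 0.068). The part of these cell mixtures in the differences was not tested, and in such bulk samples fewer cells of a type and less RNA per cell cannot be told apart.

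**Figure D5:**
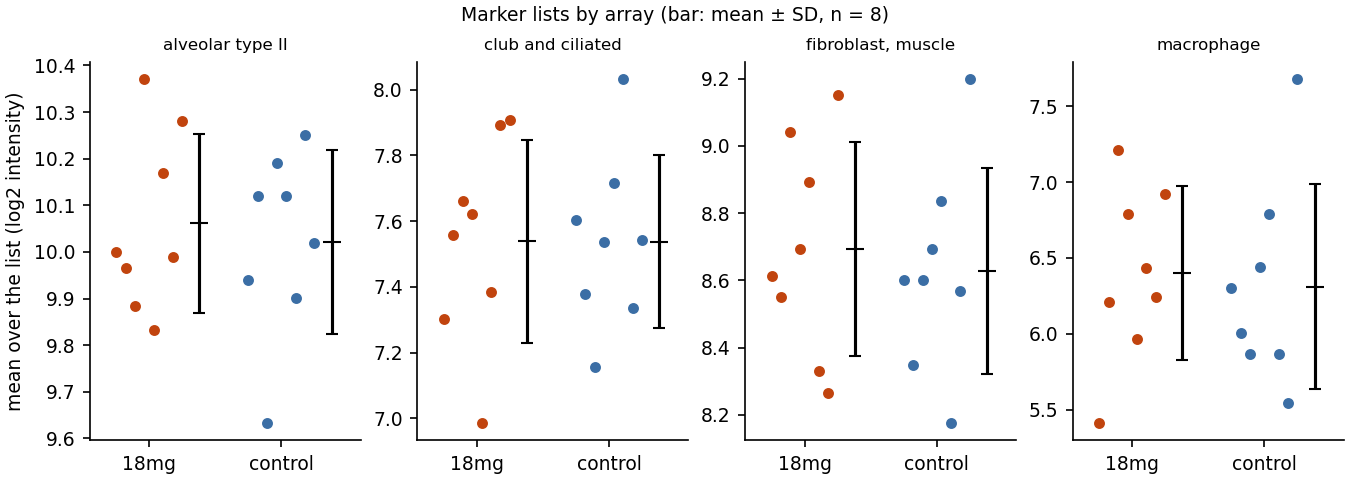
Mean log2 intensity over 4 marker lists in each AECII array, 18mg left of control, with the mean ± SD of 8 arrays beside the points. Both groups cover nearly the same range in all 4 lists, and macrophage markers vary most, from 5.41 to 7.21 in 18mg and from 5.54 to 7.68 in control.

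Across arrays, correlations within the 18mg group ran from 0.976 to 0.983, within the control group from 0.975 to 0.985, and between the 2 groups from 0.973 to 0.988. The 3 ranges overlapped.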

How the data were processed

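AECII and PASMC were profiled on 48 single-colour Agilent arrays, 8 per group, with groups read from the labels. The deposited table gives log2 values, 1 for each feature on each array. Per the submitters' processing notes limma was used, of unstated version, and the background correction is not given in the sources used here. The lowest value (1.52 to 1.53), quartiles (2.25 and 5.78), median (2.97 to 2.98) and highest value (15.89) coincide between arrays, which shows that quantile normalisation had been applied across the series to the log2 values the authors deposited. Of 62976 features 31465 carry a gene name. Names were brought to RefSeq symbols (GRCm38.p6) by accession for 29036 features and kept or matched by name for 2429. This gave 20738 genes, of which 6171 have several features.

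Genes entered a test when they averaged above 2.73 in the arrays fitted, the level of the 30th percentile among named features. Models were fitted with limma 3.58.1 (R 4.3.3, statmod 1.5.0), lmFit and eBayes, 1 coefficient per group, over the 24 AECII arrays or all 48 for the difference of responses. Tests were two-sided, the Benjamini-Hochberg adjustment ran over all tested genes of a comparison, and the threshold was 0.05. The procedure was tested on simulated data. The number of arrays limits the precision, and p values treat arrays as independent.

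Named genes were the 10 per direction with the smallest p among genes with a mean above 5, up to 4 members per list with the smallest p, and 25 readouts chosen whatever their value. The 36 pathway and 11 marker lists hold 835 genes, 27 of them without a feature. Members, lists and tests were chosen with earlier results of these data known, and lists were not tested as sets. Alternatives were other filters, renewed quantile normalisation, median centring, other sets of arrays in the fit, robust and trended eBayes, array weights, a minimum fold of 1.2, the mean of all features of a gene, the replicate number or runs of 8 samples as a block, and leaving out each array.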

Additional observations from a re-analysis of the deposited data

Results flagged for a closer look

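Of 278 groups of 8 arrays examined, 20 held 1 array far from the rest of its group, where chance gives about 1 in 20. In 18mg AECII, array 7 was low for Nqo1 (7.88, next 8.997), for Stat5a (4.20, next 4.80) and for the mean of the P450 and AhR list (8.28, next 8.70), and high for the keratin list (8.86). Array 8 of 18mg was high for Isg15 (8.74) and for the interferon list (6.72) and low for Lss (7.37). Array 3 of 18mg was low for B4galt7 (4.60) and Atp2a3 (2.12), array 5 for the p53 list (8.31) and the transitional alveolar list (11.47), array 4 for Aldh1a1 (11.92) and array 1 for Aldh1a7 (7.67).

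In control AECII, array 6 was low for Nqo1 (7.49, next 8.57) and for Fth1 (14.65, next 14.93). Control array 1 was high for Gpx3 (8.14, next 5.92) and low for the nicotinic receptor list (3.17). Control array 3 was low for the transitional alveolar list (11.45) and the fatty acid oxidation list (8.13), and control array 7 was low for Il6 (4.50, next 5.56). No explanation was tested for these single arrays.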

How the results depend on the processing

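The count of 0 called genes for 18mg against control AECII, and for 18mg against 0mg AECII, held under every alternative run, including each array left out. For the difference of responses between AECII and PASMC array weights gave 1 call (Nampt), and every other alternative gave 0. Genes higher at an unadjusted p under 0.05 numbered 369 with no filter on low values and 107 with a filter at the 50th percentile, and lower ones 289 and 64. With 1 array left out the higher genes ran from 173 (without 18mg array 6) to 260 (without control array 7) and the lower ones from 126 to 175.

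The replicate numbers were not taken to pair the arrays, since deviations of same-numbered arrays correlated at -0.209 to 0.282 (3 of 8 above 0.1), and 1 of 8 of the 18mg arrays correlated best with its own number. Between arrays of other numbers the correlations ran from -0.208 to 0.309, the highest being that of 18mg array 7 and control array 6. The labels do not say whether these arrays share a mouse, and a pairing under other numbers was not tested. With the replicate block 0 genes were called, the smallest adjusted p was 0.707 in limma, and 418 genes had an unadjusted p under 0.05.

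Among the named genes the following turned sign. Atf3 was at -0.000719 with array weights and, with runs of 8 samples as a block, at -0.014. Under that block Cyp1a1 was at 0.12, Keap1 at -0.031 and Nfe2l2 at 0.011, and Krt8 was at 0.0042 as the mean of all features. With 1 array left out Acta2 ran from -0.21 to 0.10, Atf3 from -0.054 to 0.088, Chrnb1 from -0.053 to 0.11, Cyp1a1 from -0.33 to 0.13, Keap1 from -0.0019 to 0.079, Krt8 from -0.025 to 0.020, Mt1 from -0.014 to 0.12, Nfe2l2 from -0.068 to 0.034 and Sftpc from -0.081 to 0.044. Of the 47 list medians 22 kept their sign with any 1 array left out, those of glutathione, transferase, carbonyl, thioredoxin, efflux, ATF4, heat shock, proteasome, cholesterol and interferon genes among them, and 25 of at most 0.083 in size did not. The median of the acetylcholine list was 0.096 with a filter at the 50th percentile and 0.083 with all 48 arrays. The cause of these moves was not tested. Genes near background, such as Chrna7 and Slc16a1, are limited by their signal.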
